A study of Homo sapiens with 3 samples.

Results

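YAP1 and WWTR1 (the gene of TAZ), the 4 TEAD factors and 4 of their best known target genes, CTGF, CYR61, ANKRD1 and AMOTL2, were read on gene expression arrays of HCT116 cells, a human colorectal cancer cell line, after knockdown of the chromatin remodeler SMARCA4. The 10 genes were chosen by name, and all probes that the array files assign to them were taken, which gave 10 of 43317 gene names and 11 of the 58201 probes. The 3 groups were SMARCA4-KD1 and SMARCA4-KD2, each transfected with a small interfering RNA (siRNA) against SMARCA4, and NC. Per the study's results and figure legends, NC received a scrambled negative control. There was 1 array per condition. The time between transfection and harvest is not given in the sources used here. The treatment entries of the records, which gave the knockdown number, read PRMT1, whereas titles and siRNA sequences are for SMARCA4, and the records do not say which of both siRNA sequences belongs to which array. Both knockdown arrays lay on slide 1 and were scanned in scan 1, and the NC array lay on slide 2 in scan 2, so slide and treatment cannot be told apart.

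YAP and TAZ are transcriptional coactivators that carry no DNA-binding domain of their own and act mainly through the TEAD factors, which bind DNA. The Hippo kinase cascade phosphorylates YAP and TAZ, which keeps them in the cytoplasm and leads to their degradation, so that the mRNA of YAP1 and WWTR1 does not by itself tell how active the proteins are. In the intestine the pathway is known for its part in regeneration after injury and in colorectal tumours, and CTGF, CYR61, ANKRD1 and AMOTL2 serve widely as readouts of YAP and TAZ activity.

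CYR61 and YAP1 were higher than in NC in both knockdowns, CYR61 by 2.95- and 2.06-fold and YAP1 by 1.76- and 1.53-fold in SMARCA4-KD1 and SMARCA4-KD2. TEAD2 and TEAD4 were higher by 1.64- and 1.67-fold in SMARCA4-KD1 and by 1.46-fold each in SMARCA4-KD2. CTGF stood apart between the knockdowns, as it was 1.12-fold higher than NC with SMARCA4-KD1 but 1.74-fold lower with SMARCA4-KD2. TEAD1, TEAD3, AMOTL2 and, by the brighter of its probes, WWTR1 were within 1.5-fold of NC in both, and ANKRD1 was not well above background on any array.

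In what follows, signals are processed intensities before scaling, listed in the order SMARCA4-KD1, SMARCA4-KD2, NC, and pairs of fold changes are those of SMARCA4-KD1 and SMARCA4-KD2 after scaling. SMARCA4 itself read 3960, 4129 and 14026, which left 26.6% and 28.8% of the NC level after scaling of the arrays. PRMT1 was at 120% and 129% of NC, so the targeted gene was the one in the titles. SMARCA2, the paralog of SMARCA4, was dim and also lower. It was at 36.6% and 50.9% of NC with its brighter probe and at 24.8% and 31.5% with the other. Whether the siRNAs act on SMARCA2 was not tested. The 75th percentile of the intensities, to which each array was scaled, was 237, 228 and 223, and 45.7 to 47.3% of the probes were well above background. The labelled cell type was checked with 7 epithelial markers, all well above background on all arrays, with a summed signal of 460100, 448905 and 451984, and CLDN7 (a claudin of tight junctions, log2 fold changes 0.79 and 0.72) and CLDN4 (another claudin, -0.67 and -0.68) were the ones at least 1.5-fold apart from NC in both knockdowns. Of 8 markers of stromal, endothelial and blood cells, COL1A2, COL3A1, DCN, LUM and PECAM1 were not well above background on any array. CDH5 and PTPRC were dim, COL1A1, a fibrillar collagen, read 477, 387 and 348, and the list summed to 590, 503 and 451. The arrays measured RNA of whole cultures, in which fewer cells of one kind and less RNA per cell cannot be told apart.

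The probe sequences are shown for the coactivator pair and for the 2 TEAD genes that were higher in SMARCA4-KD1, because the members are paralogs and a shared stretch bears on how far a probe can be read as its own gene. All are 60 bases long and written 5′ to 3′ as in the array files, and capitals mark the bases identical to the other probe of the pair in their best alignment without gaps.
YAP1: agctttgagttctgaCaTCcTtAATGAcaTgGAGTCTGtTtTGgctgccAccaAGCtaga
WWTR1: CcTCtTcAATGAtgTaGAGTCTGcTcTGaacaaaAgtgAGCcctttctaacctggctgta
TEAD2: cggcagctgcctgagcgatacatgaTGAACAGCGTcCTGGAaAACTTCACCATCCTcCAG
TEAD4: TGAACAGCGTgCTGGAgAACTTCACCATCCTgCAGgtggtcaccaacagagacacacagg
In hg19, the build of the files, these probes lie at chr11:102100584-102100643 on the plus strand (YAP1), chr3:149238593-149238652 on the minus strand (WWTR1), chr19:49845695-49845754 on the minus strand (TEAD2) and chr12:3149391-3149555 on the plus strand (TEAD4). The TEAD4 coordinates span 165 bases for a probe of 60, so the probe crosses an intron. An exon annotation of hg19 was not used here. The YAP1 and WWTR1 probes matched at 24 of 45 aligned bases, and the TEAD2 and TEAD4 probes at 32 of 35, which is 91.4% of the shared stretch. Beyond that stretch the TEAD2 and TEAD4 probes read different parts of their mRNAs. How much of either signal comes from the other mRNA was not tested.

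Promoters are shown for the members that hold the TEAD recognition motif, the element through which these factors reach their targets. The 250 bases before the start of each gene were read from RefSeq (GRCh38.p14) and searched for GGAATG on both strands, where the other strand reads CATTCC. The table held 10 windows of 7 members, and CYR61, TEAD1 and TEAD4 had none. The motif was found in 1 window each of CTGF, ANKRD1, AMOTL2 and YAP1, and in 11.9% of all 35116 windows of that length. Capitals mark the motif in either orientation.
CTGF (now CCN2), chr6:131951373-131951622, minus strand: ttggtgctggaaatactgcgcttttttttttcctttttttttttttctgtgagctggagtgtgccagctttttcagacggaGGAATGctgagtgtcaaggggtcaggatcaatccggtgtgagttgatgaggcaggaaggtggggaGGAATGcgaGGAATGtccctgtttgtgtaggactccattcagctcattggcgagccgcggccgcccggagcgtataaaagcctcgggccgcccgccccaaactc
ANKRD1, chr10:90921088-90921337, minus strand: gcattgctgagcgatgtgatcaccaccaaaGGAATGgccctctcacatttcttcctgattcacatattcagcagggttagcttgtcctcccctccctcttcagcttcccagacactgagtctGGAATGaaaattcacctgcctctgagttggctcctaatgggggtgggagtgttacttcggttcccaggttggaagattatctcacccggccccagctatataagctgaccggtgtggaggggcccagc
AMOTL2, chr3:134374448-134374697, minus strand: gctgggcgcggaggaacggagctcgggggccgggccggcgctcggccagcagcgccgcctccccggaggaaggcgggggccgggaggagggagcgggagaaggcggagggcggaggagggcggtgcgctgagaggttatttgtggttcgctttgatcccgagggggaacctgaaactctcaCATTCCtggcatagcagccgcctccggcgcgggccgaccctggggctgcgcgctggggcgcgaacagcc
YAP1, chr11:102110197-102110446, plus strand: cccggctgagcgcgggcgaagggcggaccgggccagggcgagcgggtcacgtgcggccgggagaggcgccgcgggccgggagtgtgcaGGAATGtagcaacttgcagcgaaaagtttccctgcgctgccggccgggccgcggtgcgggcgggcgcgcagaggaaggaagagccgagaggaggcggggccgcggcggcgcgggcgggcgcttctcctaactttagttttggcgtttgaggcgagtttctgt
The CTGF window held the motif 3 times, with first bases at -169, -104 and -95 from the start, and 0.0826% of all windows held at least 3. The ANKRD1 window held it 2 times, at -220 and -128, and 0.94% of all windows held at least 2. The AMOTL2 window held 1 at -69 and the YAP1 window 1 at -162. These letters describe the windows and are not evidence of binding. On the arrays, the 4 genes with the motif ranged from higher in both knockdowns (YAP1) to not well above background (ANKRD1).

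**Figure D1:**
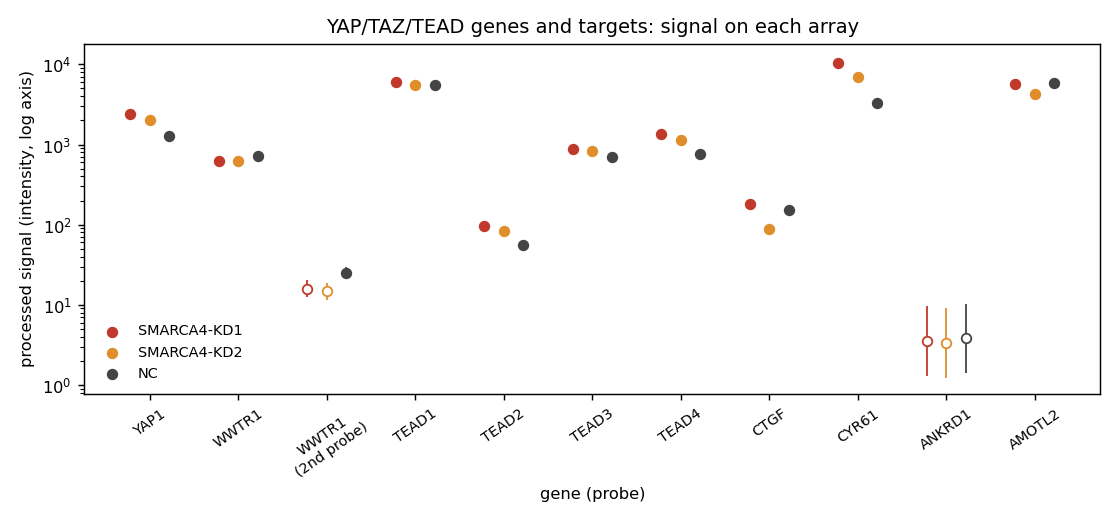
Processed signal (intensity, log axis) of every probe of the 10 genes on the SMARCA4-KD1, SMARCA4-KD2 and NC arrays, 1 point per array. Filled points were well above background, open points were not, bars are the error of the extraction software, and signals of different probes cannot be set against each other. CYR61, YAP1, TEAD1, TEAD2, TEAD3 and TEAD4 are ordered SMARCA4-KD1, SMARCA4-KD2 and NC from high to low, and ANKRD1 lies between 3.34 and 3.80 on all arrays.

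YAP1, the first coactivator, was read by a probe printed at 10 places on each array, of which the extraction flagged 1 as an outlier on all arrays, the same spot each time. The remaining 9 spots ranged from 2353 to 2455 (median 2422) with SMARCA4-KD1, from 1985 to 2048 (median 2016) with SMARCA4-KD2, and from 1261 to 1347 (median 1282) with NC. The spots of the 3 arrays did not overlap, and the order was SMARCA4-KD1, then SMARCA4-KD2, then NC. Spots of one array share the RNA and the labelling, so this shows the precision of the reading and not the spread between cultures. The 280 probes with 10 spots and well above background on all arrays were compared after scaling. Of these, 51.1% in SMARCA4-KD1 and 49.6% in SMARCA4-KD2 had all used spots above those of NC. After scaling, the lowest used YAP1 spots lay at 3.31 and 3.12 on the log2 scale, and the highest in NC at 2.59. The log2 fold changes of YAP1 were 0.82 and 0.61, with an error of 0.20 as the extraction software gives it. Of the measured genes with a fold change in the respective knockdown, 5.65% in SMARCA4-KD1 and 9.53% in SMARCA4-KD2 had a higher one than YAP1. The knockdowns differed from each other by 0.21, less than the SD of that difference over the 19497 genes well above background on all arrays, 0.25. The SMARCA4-KD2 value sits just past 1.5-fold, and quantile normalization, normexp background correction or scaling over probes well above background put it below.

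**Figure D2:**
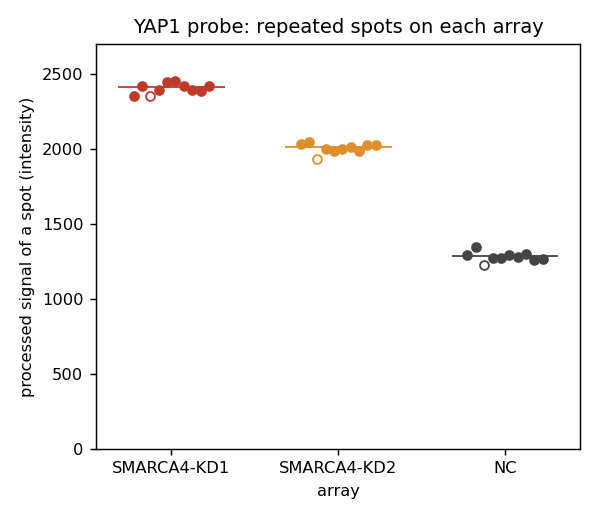
Processed signal (intensity, linear axis from 0) of the 10 spots of the YAP1 probe on each array, in the same order of position, with the geometric mean of the 9 used spots as a line and the flagged spot open. The used spots lie at 2353 to 2455, 1985 to 2048 and 1261 to 1347 in SMARCA4-KD1, SMARCA4-KD2 and NC.

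WWTR1, which encodes TAZ, read 628, 628 and 709 with its brighter probe. Both knockdowns were level with each other and below NC, with log2 fold changes of -0.26 and -0.21 (error 0.20), close to the size of the error. The second WWTR1 probe, at chr3:149419490-149419549 on the minus strand, had a signal of 15.9, 14.7 and 25.1 and was well above background in NC alone. For it the knockdown values are limits, at least 1.58-fold lower than NC in each. Since this probe passed the filter through NC alone, its direction was fixed by the filter and adds nothing to that of the brighter probe. WWTR1 and YAP1, the paralogs, differed in direction under each alternative tried.

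TEAD1, a TEAD factor found in many tissues, read 6011, 5538 and 5510. The log2 fold changes were 0.04 and -0.02, both inside the error of 0.20, and their signs turned under some scalings. TEAD3, another member of the family, had 889, 823 and 694, with log2 fold changes of 0.27 and 0.21 (error 0.20). Neither gene was 1.5-fold apart from NC in a knockdown.

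TEAD2, known from early embryos and neural progenitors, read 96.1, 82.4 and 55.1. TEAD4, which is needed for the trophectoderm and is often high in colorectal tumours, had 1337, 1123 and 755. Both genes were ordered SMARCA4-KD1, SMARCA4-KD2 and NC from high to low. YAP1, CYR61 and TEAD3 had the same order, and TEAD1 had it before scaling. The log2 fold changes of TEAD2 were 0.72 and 0.55 (error 0.23), and those of TEAD4 were 0.74 and 0.54 (error 0.20). TEAD2 is dim, and with normexp background correction its values came to 0.30 and 0.20, while those of TEAD4 were 0.74 and 0.54. The probes of these genes share the stretch printed above.

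Of the targets, CYR61 encodes a secreted matricellular protein of the CCN family that binds integrins. Its probe, at chr1:86048953-86049012, read 10291, 6924 and 3292. Both knockdowns lay above NC, and SMARCA4-KD1 lay above SMARCA4-KD2. The log2 fold changes were 1.56 and 1.04 (error 0.20). Of the measured genes with a fold change in the respective knockdown, 1.21% in SMARCA4-KD1 and 2.69% in SMARCA4-KD2 had higher values. The knockdowns differed by 0.52 (error 0.20), and 4.2% of the 19497 genes well above background on all arrays differed by more.

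CTGF, the CCN family relative of CYR61 that promotes matrix production, read 180, 88.9 and 151 at chr6:132270130-132270189. It was low in SMARCA4-KD2 alone. The log2 fold changes were 0.17 and -0.80 (error 0.21 each). SMARCA4-KD1 was 1.96-fold above SMARCA4-KD2, a difference of 0.97 on the log2 scale (error 0.21) between arrays of one slide. Of the 19497 genes, 1.11% were at least 1.5-fold higher in SMARCA4-KD1 than in SMARCA4-KD2, and 0.651% differed by more than CTGF in either direction. With normexp background correction the value in SMARCA4-KD2 was -0.50, which is within 1.5-fold.

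AMOTL2 encodes an angiomotin-like protein that binds YAP at cell junctions and so acts back on its regulator. Its probe at chr3:134074742-134074801 read 5632, 4307 and 5787. SMARCA4-KD1 was near NC and SMARCA4-KD2 was below both, with log2 fold changes of -0.12 and -0.46 (error 0.20). ANKRD1, an ankyrin repeat protein of the nucleus and sarcomere, read 3.52, 3.34 and 3.80 at chr10:92672562-92672621, which was not well above background on any array and gives no fold change. SMARCA4-KD1 was above SMARCA4-KD2 by 0.33 for AMOTL2, 0.52 for CYR61 and 0.97 for CTGF on the log2 scale, and by 0.06 to 0.21 for YAP1 and the TEAD genes, while WWTR1 had -0.05. That is 8 of the 9 measured members, beside 45.8% of the same 19497 genes, and the differences of YAP1, TEAD1, TEAD2, TEAD3, TEAD4 and WWTR1 were below the SD of 0.25.

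**Figure D3:**
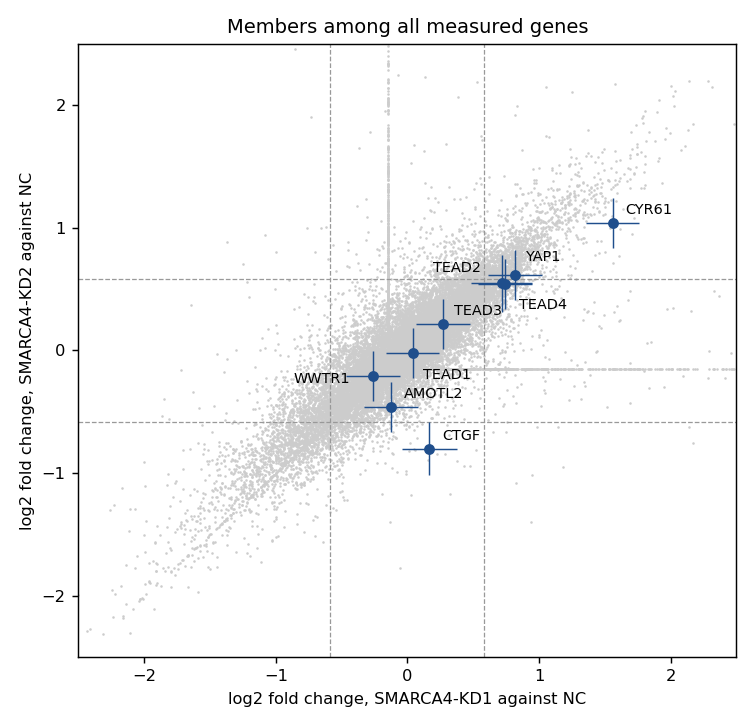
Log2 fold change against NC in SMARCA4-KD1 (x axis) and SMARCA4-KD2 (y axis) of all 22620 measured genes (grey) and of the 9 measured members (blue, bars are the error of the extraction software), with dashed lines at 1.5-fold. Both axes share the NC array, and 128 genes lie beyond the axes. Rows and columns of grey points are genes not well above background, with limits or without a true fold change. CYR61 and YAP1 lie past both lines, and CTGF lies past the lower line of SMARCA4-KD2 alone.

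Counted over the set, 9 of the 10 genes passed the filter on dim probes, and these 9 were well above background on all arrays. At least 1.5-fold higher than NC were 4 of the 9 in SMARCA4-KD1 (YAP1, TEAD2, TEAD4 and CYR61) beside 11.2% of all genes, 2 in SMARCA4-KD2 (YAP1 and CYR61) beside 10.1%, and the same 2 in both beside 6.35%. At least 1.5-fold lower were 0 in SMARCA4-KD1 beside 12.3%, 1 in SMARCA4-KD2 (CTGF) beside 9.77%, and 0 in both beside 8.05%. At 2-fold CYR61 alone was higher in both, beside 1.46% of all genes. Over the 9 genes the median log2 fold changes came to 0.27 and 0.21, against -0.004 and 0.02 over all genes. By sign alone 5 of the 9 were higher in both knockdowns (41.1% of all genes), 2 were lower in both (39.3%) and 2 had opposite signs (19.6%). The shares of all genes, by fold or by sign, and their medians include genes not well above background in NC and a knockdown. Such genes have no true fold change and cannot pass 1.5-fold or 2-fold. They stay in the total all the same, also in the shares set beside the lists below. The 9 members hold no such gene, so these backgrounds are not fully alike. Both comparisons use the one NC array, so a low or high NC value of a gene moves both in the same way. No test is possible for a single knockdown. For both knockdowns together against NC, limma called 0 of the 9 members and 0% of the 22620 genes at an adjusted p of 0.05, and 4 members (YAP1, TEAD2, TEAD4 and CYR61) and 30.4% of all genes at an unadjusted p of 0.05. The adjusted p from limma was 0.113 for YAP1, 0.119 for TEAD4, 0.124 for CYR61 and 0.147 for TEAD2, with 0.107 as the smallest of any gene. With probes restricted to those well above background on all arrays, limma called 26.5% of 19504 genes and 3 of the 9 members, with an adjusted p of 0.00382 for CYR61, 0.0073 for YAP1 and 0.0127 for TEAD4. This fit takes 2 different siRNAs as repeats of 1 condition and the lone NC array to vary like them.

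The upstream Hippo genes were read next. The list held 15 kinases, adaptors and scaffolds, all well above background on all arrays. Of these, 1 was at least 1.5-fold higher than NC in both knockdowns beside 6.35% of all genes, and 0 were lower in both beside 8.05%. MAP4K4, a kinase that can phosphorylate LATS in parallel to MST, read 1074, 931 and 488, with log2 fold changes of 1.05 and 0.90. Both knockdowns lay well above NC. The MST kinases differed in sign, with 0.43 and 0.39 for STK4 (MST1) and -0.31 and -0.47 for STK3 (MST2), where averaging the probes of STK3 turned the sign in SMARCA4-KD1. WWC2, a scaffold of LATS, had -0.45 and -0.35. FRMD6, a FERM-domain protein upstream of the kinases, read 350, 591 and 708, 2.15- and 1.22-fold lower than NC, so that it was low mainly in SMARCA4-KD1. The list's median was -0.01 and -0.12, near that of all genes.

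Of the 6 other angiomotins and vestigial-like (VGLL) cofactors of TEAD, VGLL1 and VGLL2 were not well above background on any array. VGLL4, which competes with YAP for TEAD and represses its targets, read 347, 389 and 671. It was low in both knockdowns, with log2 fold changes of -1.04 and -0.82. Among the 4 measured genes it was the 1 that passed 1.5-fold in both, beside 8.05% of all genes lower in both and 6.35% higher. A second VGLL4 probe, at chr3:11643332-11643391, had 96.4, 109 and 173, with -0.93 and -0.70. The other probe, at chr3:11763330-11763389, was well above background in SMARCA4-KD2 alone with a signal of 16.8, and the mean over probes including it was -0.70 and -0.54. AMOT, which holds YAP at junctions, had -0.55 and -0.44. VGLL3 had 0.11 and 0.33, and AMOTL1 had -0.02 and -0.32.

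A wider list of 18 genes from published YAP and TAZ target signatures gave 14 with a fold change in both knockdowns. Of these, 2 were at least 1.5-fold higher in both beside 6.35% of all genes, and 0 were lower in both beside 8.05%. By sign 7 were higher in both (41.1% of all genes) and 7 lower (39.3%). LATS2, a kinase that phosphorylates YAP and is itself a target, read 950, 848 and 355. FJX1, a homologue of a planar polarity gene of Drosophila, read 2543, 2573 and 1119. In both genes the knockdowns lay close to each other and far above NC, 2.52- and 2.33-fold for LATS2 and 2.14- and 2.25-fold for FJX1. On the other side, NT5E, the ecto-enzyme that makes adenosine, had -0.70 and -0.57, ARHGEF17 had -0.69 and -0.49, GADD45A, a stress protein, had -0.47 and -0.47, and F3, tissue factor, had -0.46 and -0.70. IGFBP3, a secreted binding protein of insulin-like growth factors, named here after its values were seen, had 0.41 and 1.02. CRIM1, TGFB2 and RBMS3 were not well above background on any array. FOXF2, a forkhead factor named here after its values were seen, was well above background in SMARCA4-KD1 alone. Its signal was 159 against 3.36 in SMARCA4-KD2 and 3.83 in NC on a probe of 1 spot, which is at least 8.48-fold higher than NC. As FOXF2 passed the filter through SMARCA4-KD1 alone, its direction was fixed by the filter and adds nothing to the list. The median of the 14 genes was 0.01 in each knockdown, and 0.20 in SMARCA4-KD1 with FOXF2 at its limit.

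The last list held 6 relatives of the CCN and ankyrin targets, of which 3 had a fold change in both knockdowns. NOV, another CCN protein, with growth-restraining roles, read 158, 181 and 444, with log2 fold changes of -1.57 and -1.33. It was low in both knockdowns, opposite to CYR61. ANKRD2, the muscle relative of ANKRD1, had 35.2, 40.7 and 60.3, with -0.86 and -0.60, and within 1.5-fold of NC after normexp background correction (-0.41 and -0.29). The study picked ANKRD2 in part from these same arrays, together with PRMT1 knockdown arrays and published SMARCA4 binding data. Its fall here therefore adds no independent evidence. ANKRD23 had -0.48 and -0.24, WISP3 was well above background in SMARCA4-KD2 alone (signal 40.7), and WISP1 and WISP2 were not well above background on any array.

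**Figure D4:**
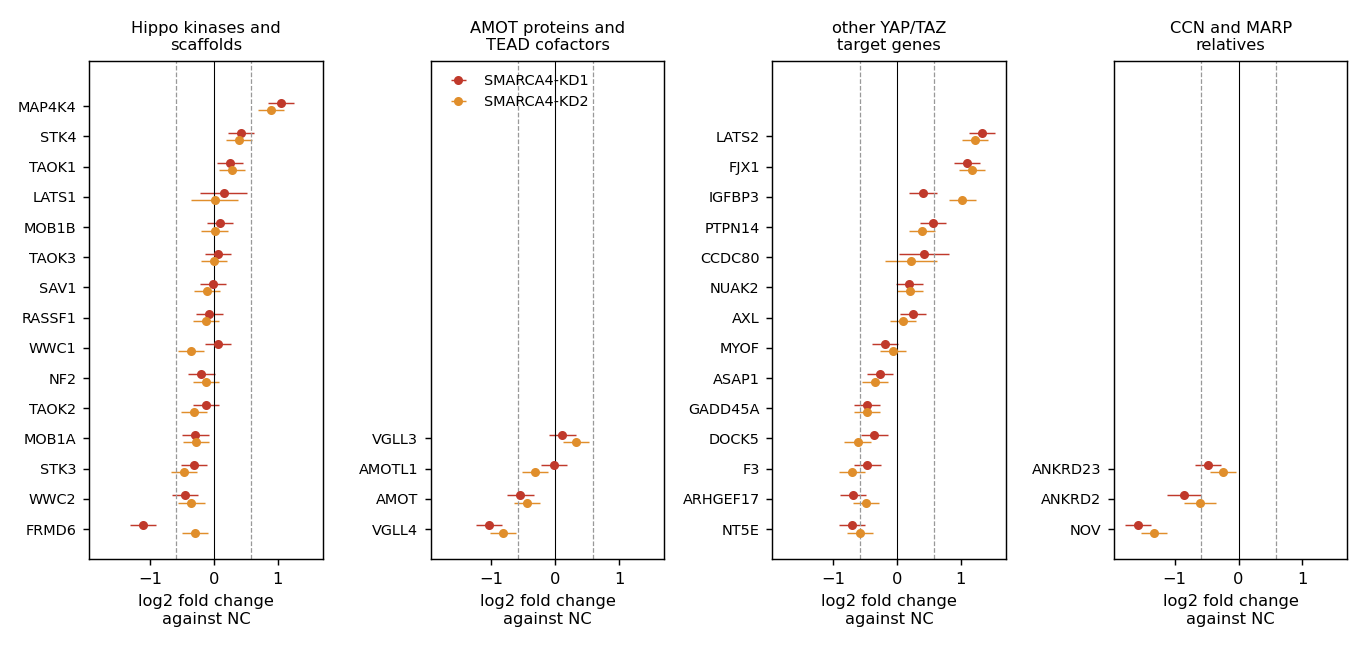
Log2 fold change against NC of each gene in the 4 lists with a value in both knockdowns (SMARCA4-KD1 red, SMARCA4-KD2 orange), with the error of the extraction software as bars, a solid line at 0 and dashed lines at 1.5-fold. MAP4K4, LATS2 and FJX1 lie past the upper line with both points, and VGLL4, ANKRD2 and NOV past the lower line.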

How the data were processed

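The authors extracted the intensity of each spot from 1-colour (Cy3) human SurePrint G3 arrays (version 3) with Agilent Feature Extraction 10.7.1.1, with background subtraction and detrending and no scaling between arrays. Both the scanner files and a series-level table were deposited, and for member probes with 1 spot they were equal within 0.1%. The deposited 0 or 1 flags (other columns) mark outlier spots and spots well above background. No columns of other samples were present. Control and outlier spots were dropped, log2 values of spots averaged per probe, and the array's 75th percentile over non-control probes subtracted. Values not well above background were raised to the lowest value well above it, so that folds against them are limits. A probe was kept if any array had it well above background, and a gene took its brightest probe, which left 22620 genes. The error is that of the extraction software for both arrays combined and does not hold the spread between cultures, and the 1 array per condition limits the precision. The methods' 1.5-fold threshold was used. The fit over both knockdowns used limma 3.58.1 in R 4.3.3, with a trend on intensity and p-values adjusted by Benjamini-Hochberg. An alternative was a Student's t-test of both knockdowns against the lone NC array, called here the methods' t-test. The methods name it for the study in general and not for the arrays. Its count before adjustment used the methods' array threshold, an unadjusted p of 0.01 with 1.5-fold. Other steps used Python 3.11.15 with numpy 2.4.6, pandas 2.3.3 and matplotlib 3.10.9, and were tested on simulated data.

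The text names all members, SMARCA4, and PRMT1 and SMARCA2 beside it. From each list it names the genes at least 1.5-fold apart from NC in the same direction in both knockdowns. Up to 4 others per list were added, ranked by the size of the smaller of their 2 changes. The members, lists and alternatives were chosen with earlier results of these data known. Gene names and hg19 positions are those of the files. The alternatives were quantile normalization, normexp (offset 50), the percentile over probes well above background, other filters, no floor, the mean over probes, the series-level table, 2-fold, and other limma settings.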

Additional observations from a re-analysis of the deposited data

Results flagged for a closer look

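CTGF was higher than NC in SMARCA4-KD1 and lower in SMARCA4-KD2, and the knockdowns differed by 0.97 on the log2 scale. TEAD1 also had opposite signs, but with a difference of 0.065, inside the error of 0.20. With 1 array per condition neither difference was tested.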

How the results depend on the processing

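The count of members at least 1.5-fold higher in both knockdowns was 2, and it was 1 (CYR61) with a 2-fold threshold, quantile normalization, normexp background correction, or the percentile over probes well above background. It was 2 under the 5 other alternatives, and the count of those lower in both was 0 under all. YAP1 and CYR61 have 1 probe each, well above background on all arrays. The filters, the floor and the mean over probes therefore could not change their values, and the series-level table repeats their intensities. Those alternatives do not show that the count is robust. The median of the members ranged from 0.22 to 0.28 in SMARCA4-KD1 and from 0.17 to 0.21 in SMARCA4-KD2. With limma the count of members was 0 at an adjusted p, 4 at an unadjusted p of 0.05 and 3 at an adjusted p when each probe had to be well above background on every array, and it was 0 without the trend, at an unadjusted p of 0.01 with 1.5-fold (chosen after seeing the data) and by the methods' t-test, which called 436 of all genes before adjustment and 0 after. limma called 0 genes after adjustment, 6876 at an unadjusted p of 0.05, 1756 at 0.01 with 1.5-fold, and 5176 with the stricter filter. The cause was not tested. Beside TEAD1, whose log2 fold change ran from -0.04 to 0.10 and from -0.11 to 0.03, all measured members kept their signs under the 8 alternatives of scaling, filter or source. Of the list genes past 1.5-fold in both knockdowns, MAP4K4, LATS2, FJX1, NOV and CLDN7 were so under all 8. VGLL4 and CLDN4 were not with the mean over probes, nor ANKRD2 with normexp. MAP4K4, LATS2, FJX1, NOV and CLDN7 have 1 passing probe each, which the mean over probes, the filters and the floor could not change. VGLL4 has 3 passing probes and CLDN4 has 2. Without a filter the median of all genes was -0.15 in both knockdowns, and elsewhere within 0.06 of 0. No paired analysis was possible because each condition had 1 array, and no array could be left out of the limma fit, which has 1 residual degree of freedom. Dim probes such as those of TEAD2 and ANKRD2 rest on little signal over background.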
